A study of Mus musculus with 22 samples.

Results

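The data described here are the RNA levels of 10 genes around insulin-like growth factor (IGF) signalling in mouse bladder organoids with and without Arid1a. The genes are H19 and Igf2, the binding protein gene Igfbp3, the receptor genes Igf1r, Insr and Igf2r, the adaptor genes Irs1 and Irs2, and the RNA-binding protein genes Igf2bp2 and Igf2bp3. They were listed by name with measured values of these libraries in view, and they are 10 of the 24421 genes in the count files. Organoids are epithelial cultures grown in 3 dimensions, and the protein made from Arid1a is part of BAF, a SWI/SNF complex that moves nucleosomes. Primary bladder urothelial organoids, Arid1a wild type (WT) or Arid1a knockout (KO), were sequenced as total RNA, as the polysome fraction and as the subpolysome fraction of a gradient, with 3 WT and 3 KO libraries of each kind. A further 4 total RNA libraries came from isogenic bladder cancer organoids, 2 labelled Arid1a WT and 2 labelled Arid1a KO, whose tissue is given as bladder cancer tissue. The polysome fraction holds RNAs carrying several ribosomes and the subpolysome fraction those carrying few or none. The sources used here do not give the age of the animals, the driver of the Arid1a deletion, the deleted exons or any other allele of the cancer organoids. Whether replicates are separate animals or cultures is not stated by the labels, and p-values therefore reflect the spread of these samples alone, which may be technical.

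H19 and Igf2 are neighbouring imprinted genes that share enhancers: H19 RNA is made from the maternal copy and Igf2 from the paternal copy, and in mammals both are high in the fetus and low in most adult tissues. Igf2 protein signals through the receptor tyrosine kinases Igf1r and Insr, which recruit the adaptors Irs1 and Irs2 and activate PI3K and AKT, while Igf2r takes Igf2 up for degradation in lysosomes and Igfbp3 holds it outside the cell. Igf2bp2 and Igf2bp3 are proteins that bind Igf2 mRNA and many other transcripts, and Igf2bp3 is best known from fetal tissue and tumours.

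In the GRCm38 annotation both H19 and Igf2 lie on the minus strand of chromosome 7. H19, a long non-coding RNA, spans chr7:142575529-142578143 and Igf2 spans chr7:142650766-142666816, 72.6 kb away. Each holds a microRNA, Mir675 in an exon of H19 (chr7:142577064-142577147) and Mir483 inside Igf2 (chr7:142654924-142654996). The mature sequences of these microRNAs from RefSeq (GRCm38.p6) are shown because the H19 and Igf2 loci encode them. The capitals mark the seed, bases 2 to 8 from the 5′ end:
miR-675-5p: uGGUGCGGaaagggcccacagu
miR-675-3p: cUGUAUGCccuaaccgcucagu
miR-483-5p: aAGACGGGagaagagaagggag
miR-483-3p: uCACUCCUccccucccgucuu

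No seed was shared among these 4 arms. Mir675 had 0 counts in all 22 libraries and Mir483 had 1 count over all of them, so these libraries give no level for either microRNA. The other genes lie apart from the pair: Igf1r at chr7:67952827-68233668, Igfbp3 at chr11:7206086-7213923, Insr at chr8:3122061-3279617, Irs2 at chr8:10984681-11008458, Igf2r at chr17:12682406-12769664, Irs1 at chr1:82233101-82291416, Igf2bp2 at chr16:22059009-22163299 and Igf2bp3 at chr6:49085223-49214957.

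RefSeq windows upstream of a transcription start were found for 8 of the 10 genes, in 11 windows of 250 bases. Igf2 has 4 such windows, and counts per gene do not tell which of its starts was used. The Igf2 window nearest the end of the gene (chr7:142657497-142657746, minus strand) and the Igf2bp3 window (chr6:49214955-49215204, minus strand) are shown because these genes, with H19, had the largest differences between the genotypes. The capitals mark the GC box (GGGCGG, either strand) and the E-box (CACGTG, the same on both strands):
Igf2: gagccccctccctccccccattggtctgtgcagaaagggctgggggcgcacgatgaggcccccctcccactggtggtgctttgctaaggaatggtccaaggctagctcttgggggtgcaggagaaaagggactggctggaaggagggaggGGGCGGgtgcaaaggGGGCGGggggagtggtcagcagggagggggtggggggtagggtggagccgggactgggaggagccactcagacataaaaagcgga
Igf2bp3: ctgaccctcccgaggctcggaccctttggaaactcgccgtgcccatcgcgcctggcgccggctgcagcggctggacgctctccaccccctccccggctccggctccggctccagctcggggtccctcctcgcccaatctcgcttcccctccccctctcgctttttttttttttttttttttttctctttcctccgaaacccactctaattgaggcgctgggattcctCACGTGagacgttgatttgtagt

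The Igf2 window shown held 2 GC boxes and no E-box, with 6 CpG and 66.0% GC. The other Igf2 windows held 1, 0 and 0 GC boxes, no E-box, and 22, 10 and 1 CpG. The Igf2bp3 window held 1 E-box and no GC box, with 21 CpG and 60.4% GC. Of 32851 mouse promoter windows of the same length, 32.7% held a GC box and 6.02% an E-box, and the medians were 6 CpG and 52.4% GC. GC boxes were also present in the windows of Igf1r, Igf2bp2, Igf2r, Irs1 and Irs2, and E-boxes in those of Igf2r, Irs1 and Irs2. A match describes the letters only.

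Total counts per library ranged from 39245248 to 76594655, and the unit of level is CPM, a count scaled by its library's total. The ribosomal RNA precursor gene Rn45s took between 0.191 and 5.589% of counts, most in KO subpolysome replicate 3. Arid1a, the targeted gene, was at 139, 156 and 141 CPM in the WT total RNA libraries and at 93.2, 93.8 and 106 CPM in the KO ones. In polysomes it ranged from 22.9 to 40.4 CPM in WT and from 15.3 to 28.7 CPM in KO, and in subpolysomes from 33.7 to 42.9 CPM in WT and from 39.2 to 47.8 CPM in KO, so the genotypes overlapped in both fractions. A count over the whole gene still includes exons outside the deleted part. In the cancer libraries Arid1a went against the labels of WT 1 and KO 1: it was at 79.2 and 228 CPM in the libraries labelled WT 1 and 2 and at 201 and 64.1 CPM in those labelled KO 1 and 2. Of 15 urothelial and epithelial marker genes, 3 were at 0 counts in the cancer libraries (the uroplakin genes Upk2, Upk3a and Upk3b), where Upk1a was at most 0.18 CPM and Krt19 at most 2.09 CPM. All 15 were present in the primary organoids, and the basal keratin genes Krt5 and Krt14 were abundant in both kinds of organoid (Krt5 between 7.79e+03 and 1.16e+04 CPM in the total RNA and cancer libraries). Endothelial and immune lists summed to at most 1.47 and 0.902 CPM.

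H19 was low in WT organoids and far higher in KO organoids. It was at 47.0, 33.1 and 27.6 CPM in the 3 WT total RNA libraries and at 1035, 829 and 904 CPM in the KO ones. The groups did not overlap, and the fitted difference was a log2 fold change of 4.66 (SE 0.17), 25.3-fold. These values are among those that led to the choice of the gene, so they are given as a description without a test. In KO total RNA, H19 took between 0.0829 and 0.103% of all counts. In bulk RNA, more cells making H19 and more H19 per cell cannot be told apart.

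Igf2, which encodes the growth factor itself, moved with H19 from a lower level. It was at 2.07, 2.16 and 1.85 CPM in WT total RNA and at 22.5, 22.8 and 22.2 CPM in KO total RNA, a log2 fold change of 3.45 (SE 0.092), 10.9-fold. The replicates within each genotype lay close together and far from the other genotype. Both genes remained apart between genotypes in the fractions. In polysomes H19 was at 11.3, 8.36 and 7.69 CPM in WT and at 250, 199 and 240 CPM in KO, a log2 fold change of 4.62 (SE 0.17). Igf2 in polysomes was at 1.26, 0.343 and 0.863 CPM in WT, on 90, 25 and 56 counts, and at 8.16, 9.55 and 6.80 CPM in KO, a log2 fold change of 3.27 (SE 0.31). No KO library was as low as any WT library for either RNA.

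In CPM, which is scaled to each fraction's own total, both were highest in the subpolysome fraction. H19 was at 125, 91.2 and 102 CPM in WT subpolysomes and at 2782, 2204 and 2326 CPM in KO subpolysomes, a log2 fold change of 4.56 (SE 0.15), and it made up between 0.22 and 0.278% of all KO subpolysome counts. Igf2 was at 3.52, 3.01 and 3.88 CPM in WT and at 44.6, 45.3 and 44.9 CPM in KO, a log2 fold change of 3.72 (SE 0.15). The KO excess was thus seen in all 3 kinds of RNA, with no overlap in any of them.

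**Figure D1:**
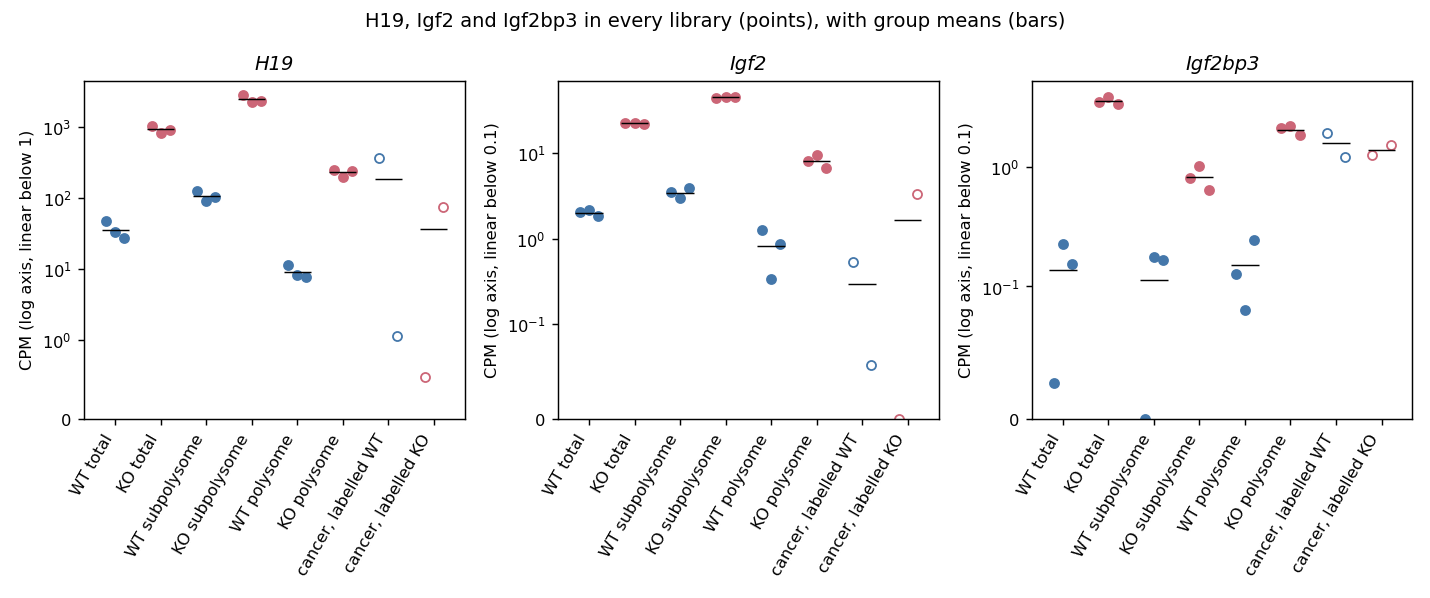
H19, Igf2 and Igf2bp3 in every library, in CPM on a log axis that is linear near 0. Points are libraries and bars are group means; filled points are primary organoids and open points are cancer libraries. KO points lie above all WT points in total RNA, subpolysomes and polysomes, and H19 in the 4 cancer libraries runs from 0.537 to 363 CPM without following the labels.

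The balance between the pair is given as a description, since it restates genotype values that were known when the pair was chosen. In WT total RNA there were 22.7, 15.3 and 14.9 H19 counts for each Igf2 count, and in KO total RNA 45.9, 36.3 and 40.8. In subpolysomes the ratios were 35.4, 30.3 and 26.2 in WT and 62.4, 48.7 and 51.7 in KO. In both kinds of RNA all KO ratios were above all WT ratios. In polysomes the ratios were 8.94, 24.4 and 8.91 in WT and 30.6, 20.9 and 35.2 in KO, and the groups overlapped, with the WT library of 25 Igf2 counts giving the highest WT ratio. These ratios are of counts and do not correct for the lengths of the RNAs, 2460 exon bases for H19 and 5723 for Igf2.

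Igf2bp3 had a KO excess as large as that of H19, on few counts. In total RNA it had 2, 15 and 11 counts in the WT libraries (0.0275, 0.226 and 0.155 CPM) and 257, 276 and 250 counts in the KO libraries (3.48, 3.82 and 3.35 CPM), a log2 fold change of 4.69 (SE 0.36). WT organoids thus had almost no Igf2bp3 reads. In polysomes it was at 0.126, 0.0824 and 0.246 CPM in WT and at 2.09, 2.19 and 1.84 CPM in KO. The fitted polysome difference was a log2 fold change of 3.70 (SE 0.38), and the groups did not overlap. In subpolysomes it was at 0, 0.177 and 0.165 CPM in WT, on 0, 8 and 8 counts, and at 0.814, 1.01 and 0.637 CPM in KO. The fitted log2 fold change there was 2.81 (SE 0.95). All 3 KO libraries of each kind reached the level that the filter on low counts asks for, but only 2 WT libraries did in total RNA, 1 in polysomes and 0 in subpolysomes. The gene was thus kept through its KO libraries, and no test between genotypes is given for it.

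The other RNA-binding member, Igf2bp2, was abundant and nearly the same in both genotypes. It was at 190, 199 and 190 CPM in WT total RNA and at 197, 197 and 197 CPM in KO total RNA, a log2 fold change of 0.01 (SE 0.039). In polysomes and subpolysomes its log2 fold changes were 0.02 (SE 0.14) and -0.12 (SE 0.11), with edgeR adjusted p of 0.937 and 0.498. Igf2bp1, the third gene of this family, had 0 to 16 counts in any primary organoid library.

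Among the receptors, Igf1r was slightly higher in KO total RNA. It was at 48.0, 55.0 and 54.6 CPM in WT and at 58.2, 60.1 and 61.8 CPM in KO, a log2 fold change of 0.17 (SE 0.058) without overlap. The insulin receptor gene Insr was at 25.1, 25.7 and 24 CPM in WT and at 21.7, 24.2 and 26.5 CPM in KO. The scavenging receptor gene Igf2r was at 65.8, 73.1 and 72.4 CPM in WT and at 66.6, 73.9 and 68.8 CPM in KO. Both overlapped between the genotypes, with log2 fold changes of -0.07 (SE 0.074) and -0.03 (SE 0.056). None of the 3 receptor genes passed the test between genotypes in polysomes (edgeR adjusted p of 0.437 for Igf1r, 0.617 for Insr and 0.851 for Igf2r) or in subpolysomes (0.425, 0.619 and 0.479).

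Of the adaptors, which link the receptors to PI3K, Irs1 was higher in KO in total RNA, a difference that did not pass in the fit on all 18 primary organoid libraries. It was at 56.1, 61.2 and 58.1 CPM in WT total RNA and at 65.6, 75.5 and 72.5 CPM in KO total RNA, a log2 fold change of 0.26 (SE 0.058). In polysomes it was at 31.5, 33.4 and 25.6 CPM in WT and at 41.6, 45.4 and 31.0 CPM in KO, with an overlap between the groups. The polysome difference did not pass edgeR's test (log2 fold change 0.34, SE 0.15, adjusted p = 0.102), but it did with the replicate number as a block (adjusted p = 0.0206) without KO polysome replicate 3 (adjusted p = 0.0132) and in the fit on all 18 primary organoid libraries (adjusted p = 0.0331). In subpolysomes Irs1 was at 40.8, 34.5 and 31.4 CPM in WT and at 44.5, 41.9 and 40.2 CPM in KO, with a log2 fold change of 0.28 (SE 0.11, edgeR adjusted p = 0.0835). Irs2 was at 8.65, 8.86 and 9 CPM in WT total RNA and at 9.91, 9.06 and 9.76 CPM in KO total RNA, which did not overlap in CPM, by a narrow gap, but did after scaling between libraries (log2 fold change 0.09, SE 0.086). Irs2 did not pass the test in polysomes or subpolysomes (edgeR adjusted p = 0.296 and 0.918).

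Igfbp3, which encodes the main carrier of IGFs in blood, was at 299, 280 and 282 CPM in WT total RNA and at 255, 286 and 264 CPM in KO total RNA. The groups overlapped and the log2 fold change was -0.12 (SE 0.05). In polysomes and subpolysomes it was -0.05 (SE 0.15) and -0.13 (SE 0.11), with edgeR adjusted p of 0.84 and 0.481.

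In total RNA 5 of the 10 genes (H19, Igf2, Igf2bp3, Irs1 and Igf1r) were past an adjusted p of 0.05 on the higher side and 0 on the lower side, beside 53.2% of all 13198 genes tested in either direction and 27% on the higher side. This contrast was used to choose the genes, so nothing is read from that count. The same 5 did not overlap between genotypes, beside 61.1% of all genes in either direction, 31% higher and 30.1% lower. Igf1r left this count without WT total replicate 1 or KO total replicate 2 or 3, and Igfbp3 joined it, on the lower side, without KO total replicate 2 or with DESeq2. In the fit on all 18 primary organoid libraries Igf1r and Irs1 both left it. In polysomes 28.8% of 13066 genes were past the threshold and 42.1% did not overlap between genotypes, and in subpolysomes 22% of 12645 genes and 36.8%. H19, Igf2 and Igf2bp3 were past it in both fractions. The first 2 were chosen with these values known and the third passed the filter through KO, so nothing is read from those calls. The subpolysome call of Igf2bp3 was lost when any 1 of the 6 libraries was left out. None of the other 7 passed in either fraction, and of these only Irs1 in subpolysomes did not overlap. The 7 differed by at most 0.43 on the log2 scale in either fraction.

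**Figure D2:**
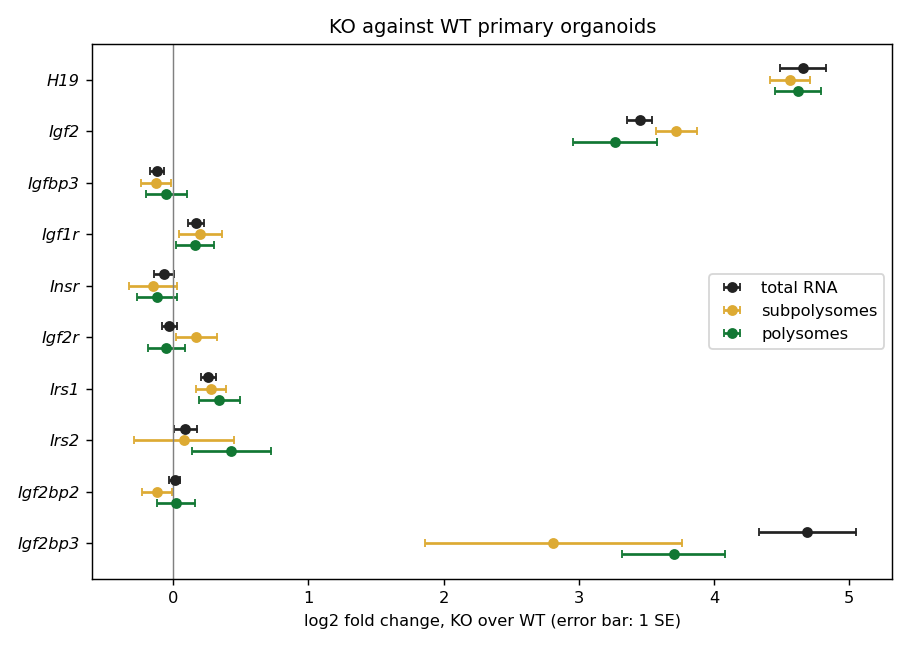
Log2 fold change of KO over WT for the 10 genes in total RNA, subpolysomes and polysomes; points are fitted values and bars are 1 SE. H19, Igf2 and Igf2bp3 lie between 2.81 and 4.69 in all 3 kinds of RNA, and the other 7 genes lie near 0.

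Compared per kilobase of exon, Igfbp3 had the highest level of the 10 in WT total RNA, from 89.4 to 95.5 CPM per kilobase. It was followed by Igf2bp2 (25.6 to 26.9), H19 (11.2 to 19.1), Igf2r (7.07 to 7.85), Irs1 (6.13 to 6.70), Igf1r (2.86 to 3.28), Insr (1.75 to 1.87), Irs2 (1.37 to 1.42), Igf2 (0.323 to 0.377) and Igf2bp3 (0.00338 to 0.0278), and no neighbours in this order overlapped. In KO total RNA H19 came first, from 337 to 421 CPM per kilobase, ahead of Igfbp3 (81.3 to 91.4). Igf2 lay between 3.87 and 3.99 CPM per kilobase there, above Igf1r (3.47 to 3.68). Next below Igf2bp2 (26.6 to 26.7), Igf2r (7.15 to 7.94) and Irs1 (7.18 to 8.26) overlapped in KO and cannot be ordered. Insr (1.58 to 1.93) and Irs2 (1.43 to 1.57) nearly touched, and Igf2bp3 was still the lowest (0.411 to 0.469).

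Cell type markers moved with the genotype in total RNA. Of the urothelial list, genes of superficial cells were higher in KO: Upk3a went from 19.1 to 20.6 CPM in WT to 93 to 122 CPM in KO, Upk3b from 5.62 to 5.65 CPM to 47.3 to 61.1 CPM, and Upk2 from 2.51 to 3.66 CPM to 13.6 to 16.3 CPM. The epithelial adhesion gene Epcam was lower, from 497 to 613 CPM in WT and from 163 to 213 CPM in KO. Trp63, of the same list, was higher in KO too, from 242 to 274 CPM in WT and from 362 to 406 CPM in KO. Of the basal keratin genes, Krt14 was lower, from 2.15e+03 to 2.54e+03 CPM in WT and from 1.73e+03 to 1.85e+03 CPM in KO. Krt5 overlapped between the genotypes. The whole urothelial list summed to between 1.42e+04 and 1.64e+04 CPM in WT and between 1.65e+04 and 1.72e+04 CPM in KO. A list of 13 fibroblast, stroma and smooth muscle genes summed to between 10.2 and 11.6 CPM in WT and between 22.3 and 24.3 CPM in KO. Most of it was Acta2, a smooth muscle and myofibroblast actin, which ranged from 5.87 to 6.65 CPM in WT and from 20.2 to 21.9 CPM in KO. The fibroblast collagen gene Col1a1 went the other way, from 2.89 to 3.71 CPM in WT and from 1.26 to 1.51 CPM in KO, and Col3a1 was at 0.0151 CPM or less in every total RNA library. In polysomes the list summed to 8.60 to 12.4 CPM in WT and 20.2 to 28.7 CPM in KO, while in subpolysomes the list summed to 3.82 to 4.76 CPM in WT and 4.08 to 6.22 CPM in KO. The part of cell makeup in the H19, Igf2 and Igf2bp3 differences was not tested.

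The genes with profiles most like the pair were found by Pearson correlation of log2 CPM over 11147 genes, given as a description. Over the 18 primary organoid libraries H19 and Igf2 were each other's closest gene (r = 0.988), followed for H19 by Hopx (0.982), Phospho1 (0.978), Rptn (0.977) and Slc44a4 (0.976). For Igf2 the next were Phospho1 (0.978), Slc44a4 (0.977), Hopx (0.971) and Rptn (0.967). With the cancer libraries added, over 22 libraries, the pair remained at 0.94, but Tmem180 (0.951) and Pbx3 (0.941) came before Igf2 for H19. Libraries that share a genotype and a fraction are not independent points.

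Around the pair, the 10 nearest genes of the count files on each side were followed as well. In total RNA 13 of these 20 were tested, and 6 rose and 4 fell, with a median log2 fold change of 0.25 beside 0 for all genes, of which 27% were called higher and 26.3% lower. The calls of Ifitm10, Ctsd, Mrpl23, R74862 and Kcnq1 were lost in the fit on all 18 primary organoid libraries. Tnnt3, a fast skeletal muscle troponin gene, rose by a log2 fold change of 1.71 (SE 0.26, edgeR adjusted p = 0.000174), and Lsp1, an actin-binding protein gene of leukocytes, by 1.01 (SE 0.17, adjusted p = 0.000333). On the other side of Igf2, Ascl2, an imprinted transcription factor gene, had 10, 0 and 0 counts in WT and 33, 35 and 35 in KO. It was kept by the filter on low counts through KO, in total RNA and in polysomes, so no test is given for it. Ascl2 is nevertheless among the 6 counted as higher in total RNA and the 5 in polysomes, so nothing is read from those counts. Cd81, a tetraspanin gene, fell, from 272, 286 and 278 CPM in WT to 128, 154 and 136 CPM in KO (log2 fold change -1.02, SE 0.061, edgeR adjusted p = 9.93e-08). Tnnt3, Lsp1, Ascl2 and Cd81 were named after their values were seen, and the tested neighbours changed in both directions. Igf2os, antisense to Igf2, had 0, 2 and 6 counts in WT and 23, 40 and 36 in KO; the strand setting of the counting is not given in the sources used here, so its reads and those of Igf2 cannot be told apart. In polysomes 5 of 13 tested neighbours rose and 2 fell, beside 14.9% higher and 13.8% lower of all genes. Of these, Syt8 and Kcnq1 lost the call in 3 and 2 of the alternatives. In subpolysomes 2 of 12 rose and 1, Cd81, fell, beside 11% in each direction. The 2 that rose, Syt8 and Mrpl23, lost the call in 5 and 4 of the alternatives.

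In the gradient, H19 and Igf2 were far more abundant, relative to other RNAs, in subpolysomes than in polysomes. The CPM of a fraction is relative to that fraction's own total, so a ratio of fractions ranks an RNA among others and is no share of its molecules. The polysome to subpolysome log2 ratio of H19 was -4.37 (SE 0.18, edgeR adjusted p = 2.61e-14) in WT and -4.29 (SE 0.17, adjusted p = 3.46e-14) in KO, lower in polysomes in 3 of 3 libraries of each genotype. Of 12334 protein-coding genes, 53 in WT and 50 in KO had a ratio as low as that of H19, and of 141 long intergenic non-coding RNAs, 17 and 12 did. A non-coding RNA has no coding sequence to translate, and the median log2 ratio of this class was -2.01 in WT and -1.65 in KO, beside 0.06 for protein-coding genes.

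Igf2 mRNA, which does encode a protein, was also lower in polysomes than in subpolysomes, relative to other RNAs. Its log2 ratio was -2.92 (SE 0.26, edgeR adjusted p = 4.55e-09) in WT and -3.35 (SE 0.23, adjusted p = 7.52e-11) in KO. Only 295 of the 12334 protein-coding genes in WT and 157 in KO had a ratio as low, which put Igf2 at percentiles 3.59 and 2.09 of all genes tested. The adaptors lay on the same side with smaller ratios: Irs1 at -1.06 (SE 0.13, edgeR adjusted p = 3.06e-07) in WT and -1 (SE 0.13, adjusted p = 7.63e-07) in KO, and Irs2 at -1.55 (SE 0.33, adjusted p = 0.000377) and -1.20 (SE 0.33, adjusted p = 0.00348). Thus the ligand and both adaptors were lower in polysomes than in subpolysomes in each genotype.

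Igfbp3 and Igf2bp2 were on the polysome side. The log2 ratio of Igfbp3 was 0.86 (SE 0.13, edgeR adjusted p = 9.52e-06) in WT and 0.95 (SE 0.13, adjusted p = 3.01e-06) in KO. That of Igf2bp2 was 0.60 (SE 0.12, edgeR adjusted p = 0.000271) in WT and 0.75 (SE 0.12, adjusted p = 2.19e-05) in KO. The receptor genes did not pass the test in either genotype: the ratios in WT and KO were -0.08 and -0.11 for Igf1r, -0.04 and -0.24 for Igf2r, and -0.34 and -0.30 for Insr (edgeR adjusted p from 0.0696 to 0.826). For Igf2bp3 the ratios were -0.44 (SE 0.76) in WT and 0.43 (SE 0.60) in KO, with edgeR adjusted p of 0.636 and 0.556. In each genotype 2 of the 10 genes were higher and 4 lower in polysomes, beside 63.7% of 13392 genes called in WT (32.8% higher and 30.9% lower) and 61.6% in KO (31.7% higher and 29.9% lower). The fractions did not overlap for 7 of the 10 in each genotype, beside 68.7% of all genes in WT and 64.8% in KO.

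No genotype difference in the polysome to subpolysome ratio was found for any of the 10. The difference in log2 ratio, KO minus WT, was 0.07 (SE 0.22) for H19, -0.43 (SE 0.34) for Igf2 and 0.86 (SE 0.97) for Igf2bp3, and edgeR's adjusted p ranged from 0.936 to 0.994 over the 10. In this test 1 of 13392 genes was called (0.00747%), 758 had an unadjusted p under 0.05, and DESeq2 called 12. The errors leave room for differences of the size seen for Igf2, so a p above the threshold does not show equal ratios.

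**Figure D3:**
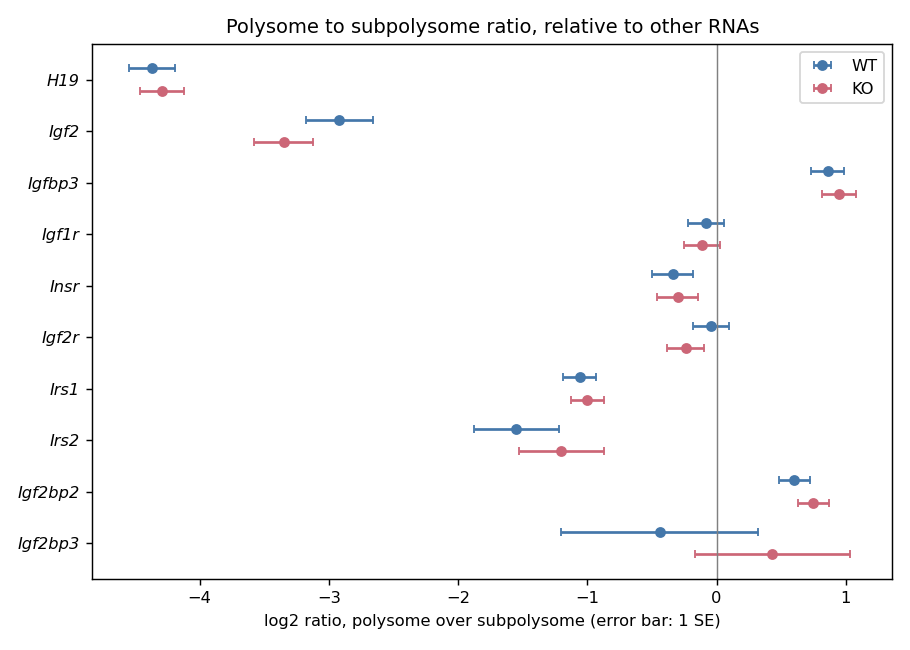
Log2 ratio of polysome to subpolysome levels of the 10 genes in WT and KO organoids, relative to other RNAs; points are fitted values and bars are 1 SE. H19 (-4.37 and -4.29) and Igf2 (-2.92 and -3.35) lie far to the left in both genotypes, and Igfbp3 and Igf2bp2 lie to the right of 0.

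Beyond the 10 genes, a list of 70 other genes of the pathway was followed, written from general knowledge with earlier results of these data known. In total RNA 55 of them were tested, and 11 rose and 18 fell, with a median log2 fold change of -0.05 beside 0 for all genes. Among these calls, Igfbp2 was kept by the filter on low counts through KO and Pik3cd through WT, so nothing is read from either. The background of all genes was 27% higher and 26.3% lower. With a fit on all 18 primary organoid libraries only 12 of the 55 were past the threshold.

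Of 9 adaptor genes tested, which act next to the receptors, 1 rose and 7 fell, beside 27% higher and 26.3% lower of all genes. Their median log2 fold change was -0.33, but 5 of these 8 calls (Shc1, Grb2, Gab1, Sos1 and Sos2) were lost in the fit on all 18 libraries. The one that rose was Gab1, by 0.21 (SE 0.053, edgeR adjusted p = 0.00495, and 0.412 in the fit on all 18 libraries). Sh2b1, an adaptor of the insulin receptor, fell by 0.36 on the log2 scale (SE 0.051, edgeR adjusted p = 0.000106). Grb14, an inhibitor of the insulin receptor that was singled out after its values were seen, had 141, 137 and 124 counts in WT and 33, 14 and 12 in KO, a log2 fold change of -2.86 (SE 0.35, edgeR adjusted p = 3.03e-05). In the PI3K-AKT-mTOR group 4 of 28 rose and 8 fell, with a median of -0.05, beside the same shares of all genes. Inppl1, a lipid phosphatase gene that limits PI3K signals, fell by 0.38 (SE 0.053, edgeR adjusted p = 8.95e-05).

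Among regulators of imprinted domains 3 of 8 tested rose and 0 fell, beside 27% higher and 26.3% lower of all genes. Uhrf1, which brings the maintenance DNA methyltransferase to newly copied DNA, was at 28.3, 22.6 and 20.6 CPM in WT total RNA and at 67.5, 47.7 and 58.7 CPM in KO, a log2 fold change of 1.26 (SE 0.13, edgeR adjusted p = 8.49e-06). Dnmt1, that methyltransferase, was at 59.4, 58.9 and 50.3 CPM in WT and at 91.4, 72.2 and 87.2 CPM in KO, a log2 fold change of 0.55 (SE 0.087, edgeR adjusted p = 0.000236). The third, Plagl1, a transcription factor of the imprinted gene network, rose by 0.35 (SE 0.12, edgeR adjusted p = 0.0326). That call was lost without WT total replicate 1 or 2 or any KO total replicate (adjusted p from 0.0526 to 0.11), and at 0.547 in the joint fit of 18 libraries.

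Of 4 RNA-binding and oncofetal genes tested 0 rose and 2 fell, beside 27% higher and 26.3% lower of all genes. Hmga2, a fetal chromatin protein gene whose mRNA is a known target of Igf2bp proteins, fell from 435, 437 and 454 CPM in WT total RNA to 291, 332 and 300 CPM in KO (log2 fold change -0.54, SE 0.051, edgeR adjusted p = 4.18e-06). The other, Hmga1, fell by 0.67 (SE 0.22, edgeR adjusted p = 0.0213), a call lost without WT total replicate 1 or 3 or KO total replicate 3 (adjusted p from 0.0547 to 0.0841) and in the fit on all 18 libraries (0.0972). Among 3 secreted binding proteins tested Igfbp7 fell by 0.46 on the log2 scale (SE 0.043, edgeR adjusted p = 4.31e-06). Stc1, a stanniocalcin gene of the group of proteases that free IGFs and their inhibitors, rose by 0.48 (SE 0.15, edgeR adjusted p = 0.02). The Stc1 call was lost without KO total replicate 1 or WT total replicate 2 or 3 (adjusted p from 0.0674 to 0.0743), and at 0.427 in the joint fit of 18 libraries. Stc2, at low counts, rose by 1.27 (SE 0.30, edgeR adjusted p = 0.00383). Igfbp2 had 13, 6 and 6 counts in WT and 48, 15 and 16 in KO, a log2 fold change of 1.55 (SE 0.59). Igfbp2 was kept by the filter on low counts through KO, so no test is given for it. Without KO total replicate 1 the Igfbp2 log2 fold change was 0.795. Gab1, Plagl1, Hmga1, Igfbp2 and Stc2 were named after their values were seen. Other ligands were nearly absent: Ins1 and Ins2 had 0 counts in all 22 libraries, and Igf1 had at most 2 counts outside the library labelled cancer KO 1, where it had 134.

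**Figure D4:**
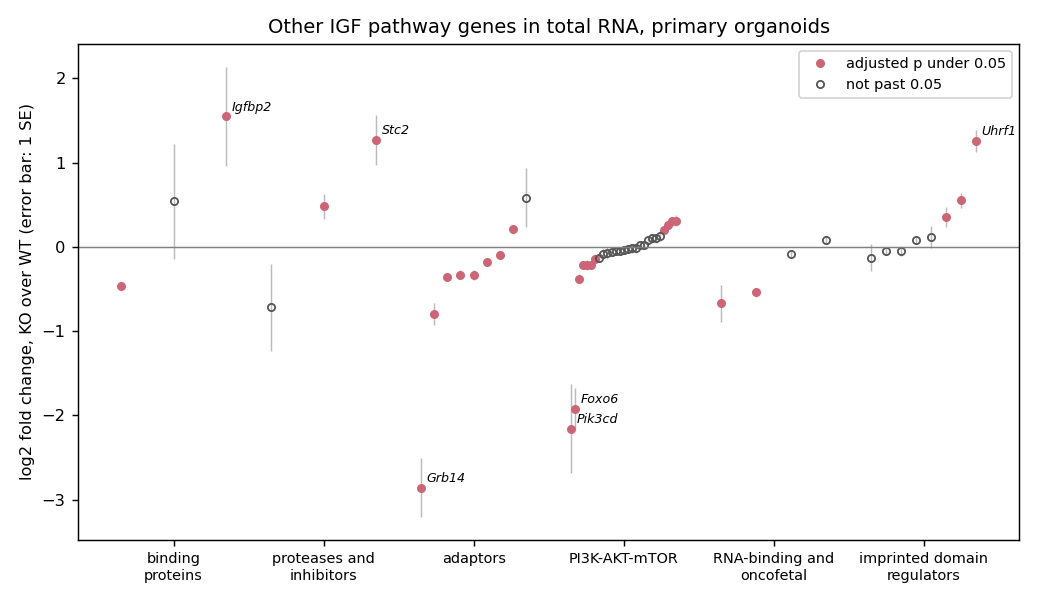
Log2 fold change of KO over WT in total RNA for 54 genes of the pathway list, grouped by role; bars are 1 SE, filled points have an adjusted p under 0.05 and names mark changes above 1. Grb14 (-2.86) is the lowest point, and the adaptors lie mostly below 0. Igfbp2 and Pik3cd, among the filled points, were kept by the filter on low counts through KO and WT respectively.

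In the fractions fewer of the listed genes were called. In polysomes 5 of 53 tested rose and 6 fell, beside 14.9% higher and 13.8% lower of all genes, and with the replicate number as a block 17 were called. Uhrf1 had a log2 fold change of 1.20 there (SE 0.16, edgeR adjusted p = 1.74e-05), Dnmt1 of 0.70 (SE 0.15, adjusted p = 0.00143) and Hmga2 of -0.65 (SE 0.14, adjusted p = 0.00162). In subpolysomes 3 of 50 rose and 6 fell, beside 11% in each direction, and a fit on all 18 primary libraries called 16. Grb14, among those that fell in both fractions, was kept by the filter on low counts through WT. It had 13, 13 and 5 counts in KO polysomes and 1, 0 and 7 in KO subpolysomes. Its subpolysome call was lost in 6 of the alternatives, and nothing is read from the counts of either fraction. Uhrf1 was at 1.02 (SE 0.17, edgeR adjusted p = 6.32e-05), Igfbp7 at -0.56 (SE 0.10, adjusted p = 0.000227) and Hmga2 at -0.53 (SE 0.10, adjusted p = 0.00051).

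Between fractions, 17 of 54 listed genes were higher and 11 lower in polysomes in WT, and 14 and 14 in KO. Of all genes, 32.8% were higher and 30.9% lower in WT, and 31.7% and 29.9% in KO. Those called higher include Igfbp2 in WT, with 0, 0 and 0 WT subpolysome counts, and Foxo6 in KO, with 0, 5 and 0 KO subpolysome counts. Both passed the filter on low counts through other libraries, so nothing is read from these counts of calls. Grb2, the adaptor that couples receptors to Ras, had the highest called ratio of the listed genes with an average log2 CPM of at least 2, 2.13 (SE 0.11, edgeR adjusted p = 1.35e-12) in WT and 1.94 (SE 0.11, adjusted p = 6.16e-12) in KO. Shc1, an adaptor upstream of Grb2, had ratios of 1.37 (SE 0.13, edgeR adjusted p = 6.23e-09) and 1.44 (SE 0.13, adjusted p = 3.5e-09). Elavl1, an RNA-stabilising protein gene, was at 1.31 (SE 0.12, edgeR adjusted p = 5.29e-09) in WT, and Khsrp, a gene of an RNA decay factor, at -1.34 (SE 0.15, adjusted p = 1.21e-07). In KO Igfbp7 was at 1.38 (SE 0.12, edgeR adjusted p = 5.46e-09) and Rictor, of the second mTOR complex, at -1.24 (SE 0.15, adjusted p = 4.75e-07). The adaptors Grb2 and Shc1 lay on the polysome side, whereas Irs1 and Irs2 lay on the subpolysome side. For the genotype difference in this ratio 0 of 54 were called by edgeR.

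In the cancer libraries 8 of the 10 genes, H19 and Igf2 among them, overlapped between the labels. H19 was at 363 CPM (18382 counts) in the library labelled WT 1, 1.15 CPM (60 counts) in that labelled WT 2, 0.537 CPM (26 counts) in that labelled KO 1 and 73.7 CPM (4088 counts) in that labelled KO 2. Igf2 had 27, 3, 0 and 186 counts in the same order. The 2 libraries with high H19 thus carry different labels, and they are also the 2 with low Arid1a, at 79.2 and 64.1 CPM. This grouping was seen after the values were known, and the share of all genes that split this way was not computed. Cd81 split the same way, at 11.5 and 21.2 CPM in the libraries labelled WT 1 and KO 2 and at 92.6 and 105 CPM in those labelled WT 2 and KO 1. The libraries labelled WT 1 and KO 2 had the most Igf2 counts too, but in different proportion. The first had 681 H19 counts for each Igf2 count and the second had 22.

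The other genes varied among the 4 cancer libraries as well. Igfbp3 was at 39.4 and 249 CPM in the libraries labelled WT 1 and 2 and at 292 and 161 CPM in those labelled KO 1 and 2. Insr was at 0.967 and 4.61 CPM in those labelled WT and at 10.5 and 14.3 CPM in those labelled KO, without overlap. Irs1 was at 8.42, 41.6, 31.0 and 33.5 CPM in the same order, so the library labelled WT 1 was lowest for Igfbp3, Insr and Irs1. Irs2 was at 4.28 and 6.45 CPM against 6.61 and 10.3 CPM, also without overlap. Igf2bp3 ranged from 1.21 to 1.93 CPM, Igf2bp2 from 97.9 to 146 CPM, Igf1r from 147 to 187 CPM and Igf2r from 117 to 160 CPM. Igf2bp1 was at 16.8 CPM in the library labelled WT 1 and between 2.58 and 4.38 CPM in the others.

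As labelled, KO against WT gave a log2 fold change of -2.22 (SE 3.0) for H19, which ran from -8.36 to 5.05 over the alternatives, and of 2.57 (SE 2.6) for Igf2, from -6.89 to 4.85. That range came from leaving out single libraries, of either label. For Insr it was 2.19 (SE 0.88). None of the 10 was called by edgeR (0 of 12681 genes were, that is 0%, 96 had an unadjusted p under 0.05, and DESeq2 called 10), and 20.6% of all genes did not overlap between the labels, 10.4% on the higher side as Insr and Irs2 did. Of the pathway list 0 of 55 tested were called, and of the neighbours of the pair 0 of 11. The library labelled WT 1 also stood apart in its fibroblast, stroma and smooth muscle genes, which summed to 15.9 CPM there, with Col3a1 at 8.52 CPM, and to between 1.88 and 2.87 CPM in the other 3. The Y-linked gene Ddx3y had 12 counts in the library labelled KO 2 and between 2578 and 3478 counts in the other 3 of these libraries, which the labels call isogenic. The part of these differences in the H19 levels was not tested.

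**Figure D5:**
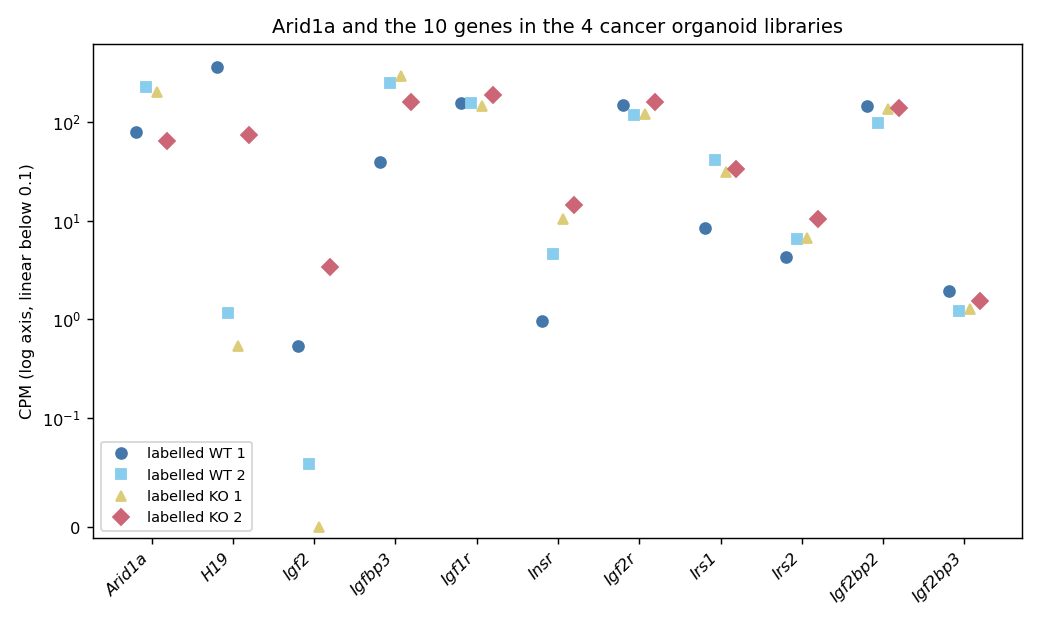
Arid1a and the 10 genes in the 4 cancer libraries, in CPM on a log axis that is linear below 0.1; each symbol is 1 library. Arid1a is low and H19 high in the libraries labelled WT 1 and KO 2, a grouping seen after the values were known, while Igf1r, Igf2r and Igf2bp2 vary little.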

How the data were processed

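The deposited values are raw read counts per gene for 22 libraries; per the submitters' processing notes the authors counted reads with HTSeq on the mm10 genome, and Bowtie is also named for the 18 primary organoid libraries. Versions, gene annotation and strand setting were not found in the sources used. From the counts, CPM and CPM per kilobase of exon (GRCm38 annotation) were computed, and each comparison was fitted over all genes with edgeR 4.0.16 in R 4.3.3 (TMM scaling, filterByExpr, quasi-likelihood test, Benjamini-Hochberg adjustment, threshold 0.05). Total RNA and cancer libraries were fitted apart. The fraction contrasts of genotype were fitted within each fraction, and the fraction ratios and their genotype difference over the 12 gradient libraries together. The main ratio fits did not match polysome and subpolysome libraries of the same genotype and number, and the replicate block did. Each such library correlated best with the one of its own number. Only the edgeR fit of KO against WT in total RNA was tried on simulated data, and the other comparisons and alternatives were not. DESeq2 1.42.0, RLE size factors, no filter, a replicate block, a joint fit of the 18 primary libraries and leaving out each library were the alternatives, with a crossed block in the cancer libraries added after seeing the data.

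The 10 genes and all lists were chosen with earlier results of these data known. All 10 are described whatever their values; of the pathway list, the text names the 8 largest changes past the threshold in total RNA and the 4 largest in each other comparison, at an average log2 CPM of at least 2. Of that list, 1 gene counts in the totals but is not reported here. Neighbours are the 10 nearest genes on each side of the pair, and the 5 most alike genes are given for H19 and Igf2. The levels of H19 and Igf2 are given without p-values between genotypes, and so are those of all 10 in total RNA. Calls past the threshold are still stated for them, with nothing read from the counts of calls.

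Within groups, chi-square over degrees of freedom of library pairs was 11.9 or more, so no pair differed by as little as sampling noise. In polysomes, deviations of same-numbered WT and KO libraries from their group means correlated at 0.19, 0.2 and 0.25. The labels state no such pairing, and the main fits, polysomes included, have no replicate block. In total RNA (-0.066 to 0.15) and subpolysomes (0.034 to 0.069) these correlations were lower.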

Additional observations from a re-analysis of the deposited data

How the results depend on the processing

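Over 920 alternative values for the 70 results on the 10 genes, 19 changed a call (12 lost, 7 gained) and 0 called values reversed. These include the genotype difference of the ratio and the cancer comparison, where edgeR's adjusted p was at least 0.936 and no call changed. They also include the total RNA results used to choose the genes. The share of changed calls is therefore no measure of how firm the results are. For the 141 called results of other listed or neighbouring genes, 46 lost the call somewhere and 0 reversed. The number of genes past the threshold stayed within 1.5 times the main count under most settings. In total RNA it went from 7025 to 3784 in a fit on all 18 primary libraries. For the genotype difference in the fraction ratio it went from 1 to 12 with DESeq2, 29 without a filter, 12 with the replicate block, 6 in the fit on all 18 libraries and between 0 and 4 with 1 library left out. In the cancer libraries it went from 0 to 10 with DESeq2. The cause of these differences was not tested.

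With the replicate block, 5030 genes were called in polysomes, against 3757 in the main fit without it. That the numbers pair WT and KO samples there is a reading of the correlations and is not stated by the labels. In total RNA and subpolysomes the block gave 6937 and 3239 against 7025 and 2782. In subpolysomes every library correlated best with its own number, which is a hint from the data, not the design. In the cancer libraries same-numbered libraries correlated at -0.43, and both the block and its crossed form called 0 genes. The block changed the call of Irs1 in polysomes (adjusted p = 0.0206) and subpolysomes (0.0441) and of no other of the 10. Depth limits Igf2bp3 in WT (0 to 16 counts a library), and 2 libraries per label limit the cancer comparison.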
